A study of Homo sapiens with 8 samples.

Results

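The 9 genes MAP3K7, TTI1, DPH5, ARMC9, ABCC5, CRNDE, DVL2, TMEM14C and SERBP1 are known targets of cryptic 3′ splice site use by mutant SF3B1. Their RNA levels were followed through 8 libraries of MEL202, an established human uveal melanoma cell line that carries an SF3B1 mutation. They were chosen by name, with earlier results of these data known. Each of the 9 symbols matched exactly 1 of the 32087 loci in the deposited table, and all 9 passed the level filter that left 11894 named loci for testing. The unit is gene-level FPKM, a fragment count corrected for the length of the transcript and the size of the library, here rescaled so that the 75th percentile of every library is 10. Levels can therefore be compared between genes, but a single value sums the normally and the aberrantly spliced RNA of a gene.

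The 4 lines were each sampled without and with Shld, the ligand that stabilises a destabilising domain (degron) fused to a protein. They were the mutant-SF3B1 knockout line (mut-SF3B1 KO), the line with the degron on mutant SF3B1 (DD-mut-SF3B1), the line with the degron on wildtype SF3B1 (DD-wt-SF3B1) and parental cells. Labels of the 3 edited lines give 2 days for both Shld states, while the column names give 4 days for the knockout and parental libraries without Shld. The column names also state that the knockout line carries the degron on wildtype SF3B1, so its Shld withdrawal may deplete wildtype protein. By the labels, mutant SF3B1 is absent or depleted in 3 libraries, both of the knockout line and the mutant degron library without Shld. It is present in the other 5. Each state had 1 library, the lines are listed under a clone tag, and nothing says that the libraries of a line came from separate cultures. P-values therefore measure the spread between these libraries, which may be technical.

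SF3B1 is the subunit of the U2 small nuclear ribonucleoprotein that holds the branch point of an intron, from which the 3′ splice site is chosen. Hotspot mutants of SF3B1 use another branch point and with it a cryptic AG upstream of the usual acceptor, so that a short stretch of intron stays in the mRNA. Where this stretch shifts the reading frame, the mRNA often meets an early stop codon and is removed by nonsense-mediated decay, which lowers the level of the whole gene. Where it keeps the frame or lies in an untranslated or noncoding RNA, the altered transcript can persist.

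The human gene annotation GENCODE release 29 (build GRCh38, whereas hg19 is the build named for the deposited values) was searched for this kind of acceptor pair. A pair shares its donor, and the 2 acceptors lie 10 to 30 bases apart. Pairs were annotated in 4 of the 9 genes, CRNDE, DVL2, SERBP1 and TMEM14C, and in 13.7% of 9456 tested genes with more than 1 exon. Those of CRNDE, DVL2 and TMEM14C are shown because they display how a short acceptor shift changes a transcript; which form these cells made was not measured. Capitals mark the bases that only the longer form contains, and the lower-case bases on either side, read together, are the junction of the shorter form. All are given 5′ to 3′ on the strand of the gene.
TMEM14C, chr6:10724556-10724569 (+), untranslated region: tgagaccgCTTGTTTTCTGCAGgtgcaggc
CRNDE, chr16:54920328-54920338 (-), noncoding RNA: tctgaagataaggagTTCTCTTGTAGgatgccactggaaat
DVL2, chr17:7229448-7229475 (-), noncoding transcript of the gene: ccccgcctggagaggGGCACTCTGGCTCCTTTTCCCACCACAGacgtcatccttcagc
DVL2, chr17:7230138-7230155 (-), coding sequence: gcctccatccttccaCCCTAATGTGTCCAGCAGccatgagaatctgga
The stretches are 14, 11, 28 and 18 bases long in this order, and each ends in AG, as a second acceptor must. The 18-base stretch of DVL2 is a multiple of 3, so both forms keep the reading frame; it belongs to 7 annotated transcripts and is missing from 1, so there the rarer form loses bases. The 28-base stretch of DVL2 is in 1 annotated transcript and absent from 4. The 14-base stretch of TMEM14C lies outside the coding sequence. No such pair is annotated for MAP3K7, TTI1, DPH5, ARMC9 or ABCC5.

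The library facts that bear on these values are few. SF3B1 itself stood at 138 and 158 rescaled FPKM in the knockout line without and with Shld, against 240 and 266 in parental cells, a log2 difference of -0.77 ± 0.10 (limma, ± SE, adjusted p = 0.00049). It was also lower in the wildtype degron line, by 0.38 ± 0.10 (log2 difference -0.38, adjusted p = 0.014), and its RNA passed in no Shld withdrawal, where the degron acts on protein. Summed values were 762679 to 961994 per library, lowest in the wildtype degron line and highest in parental cells. Absolute depth is unknown. Fragments per unit of value were only estimated, from the most frequent ratio to the parental library with Shld among 1542 to 1803 loci of low value. By this estimate a unit of value stood for 1.44 and 1.47 times the fragments in the knockout and mutant degron libraries with Shld. In the other 5 it stood for 1.05 to 1.19 times. All 8 melanocyte markers in the table had a mean over 1. Of 7 immune and endothelial markers 6 had a mean under 1, PTPRC and PECAM1 among them, and CD68 was the exception. Their summed level was 639 to 834, nearly all of it CD68, which alone stood at 638 to 833. Of 3 fibroblast markers in the table only LUM had a mean over 1.

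Levels differed widely among the 9 genes. TMEM14C was the most abundant with a mean of 269.7 rescaled FPKM over the 8 libraries, followed by SERBP1 (96.1), ABCC5 (69.8), ARMC9 (67.2), DVL2 (53.2), CRNDE (31.7), DPH5 (20.2), TTI1 (12.7) and MAP3K7 (10.2). In this order the range of TMEM14C over the 8 libraries lay above that of SERBP1, and every later pair of neighbours had overlapping ranges. DPH5 and CRNDE varied most across libraries, with a highest level 3.27 and 2.94 times the lowest. SERBP1 varied least, at 1.26 times.

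**Figure D1:**
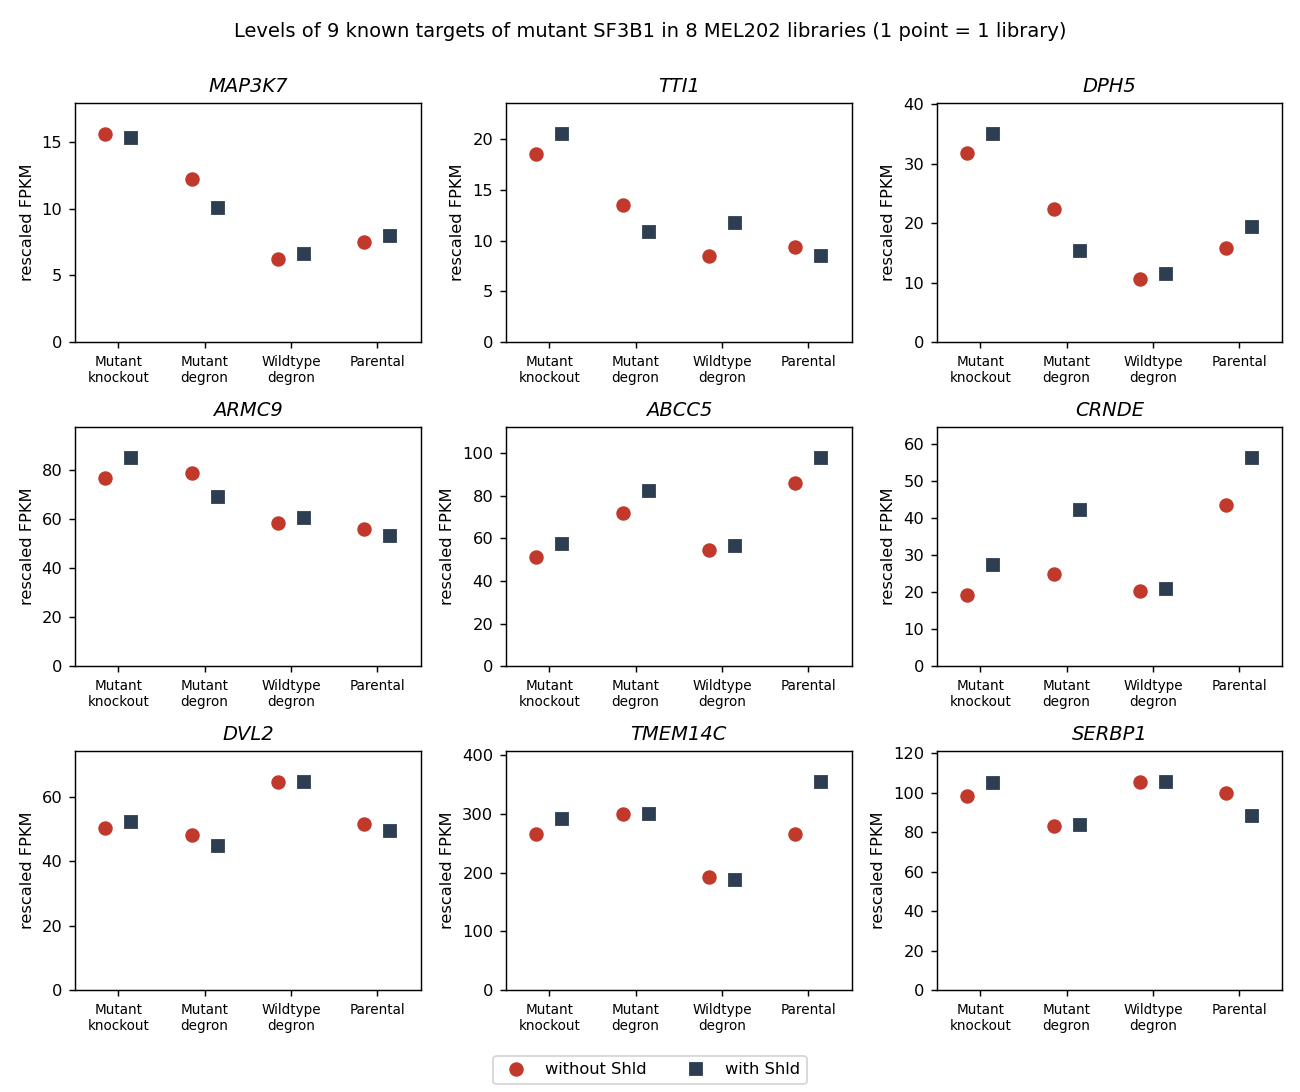
Level of each gene (rescaled FPKM, linear axis from 0) in the 4 lines, with 1 point per library, circles without and squares with Shld. MAP3K7, TTI1, DPH5 and ARMC9 have their highest point in the knockout line. For ARMC9 the mutant degron library without Shld (78.7) lies above the knockout library without Shld (76.9). ABCC5 and CRNDE are highest in parental cells, and SERBP1 stays between 83.3 and 105.

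The first question was how the 9 genes stood in cells without the mutant allele. In the knockout line 4 of them were higher than in parental cells and 2 were lower, 6 of 9 at an adjusted p under 0.05, against 37.8% of all 11894 loci (17.3% higher and 20.5% lower). MAP3K7, TTI1 and DPH5 rose 1.88-, 2.07- and 1.86-fold and ARMC9 1.47-fold, ABCC5 and CRNDE fell to 0.60 and 0.47 of the parental level, and DVL2, TMEM14C and SERBP1 did not pass. The members' median log2 difference was 0.12, beside -0.03 over all loci. Clone differences and loss of the mutant allele cannot be told apart in this comparison. All 8 melanocyte markers fell as well, with summed levels of 6442 and 7185 in the knockout line, against 12932 and 11949 in parental cells (median log2 difference -1.26). The summed fibroblast markers, nearly all LUM, stood at 1.64 and 1.72, against 21.0 and 29.9 in parental cells. The part of these in the 9 genes was not tested, and in bulk RNA fewer cells of a kind and less RNA per cell cannot be told apart.

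MAP3K7 encodes TAK1, the kinase that passes signals from cytokine receptors to NF-kappaB and stress kinases. It stood at 15.6 and 15.3 rescaled FPKM in the knockout line without and with Shld, against 7.49 and 7.96 in parental cells. The log2 difference was 0.91 ± 0.11 (limma, adjusted p = 0.00045), larger than in all but 3.93% of loci. TTI1, a scaffold of the TTT complex that stabilises the PI3K-like kinases, stood at 18.6 and 20.5 in the knockout line, against 9.37 and 8.48 in parental cells. It rose by 1.05 ± 0.16 (adjusted p = 0.0013), exceeded by 2.95% of loci. DPH5, a methyltransferase that builds diphthamide on elongation factor 2, stood at 31.7 and 35.0 in the knockout line, against 15.8 and 19.4 in parental cells. It rose by 0.89 ± 0.17 (adjusted p = 0.0039).

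ARMC9, a protein of the ciliary base that is mutated in Joubert syndrome, stood at 76.9 and 84.9 in the knockout line without and with Shld, against 55.8 and 53.2 in parental cells. This smaller rise of 0.56 ± 0.09 also passed (limma, adjusted p = 0.0022). ABCC5, an exporter of cyclic nucleotides and drugs, was at 51.4 and 57.3 in the knockout line, against 86.1 and 97.8 in parental cells, and fell by 0.75 ± 0.10 (adjusted p = 0.00084). CRNDE, a long noncoding RNA next to the homeobox gene IRX5, was at 19.1 and 27.3 in the knockout line, against 43.5 and 56.1 in parental cells, and fell by 1.08 ± 0.24 (adjusted p = 0.0090). Its parental libraries differ among themselves: without the parental library with Shld, its difference was -0.90 with an adjusted p of 0.076. Without a level filter CRNDE had an adjusted p of 0.11 and DPH5 0.061.

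DVL2, a Dishevelled protein that relays Wnt signals, was at 50.3 and 52.1 in the knockout line, against 51.6 and 49.3 in parental cells, a log2 difference of 0.02 ± 0.08 that became -0.0047 with median scaling and did not pass (limma, adjusted p = 0.86). TMEM14C, a mitochondrial membrane protein needed for heme synthesis, was at 266 and 291 in the knockout line, against 266 and 355 in parental cells (log2 difference -0.14 ± 0.13, adjusted p = 0.42). The parental libraries of TMEM14C were the furthest apart: without the one with Shld the difference was 0.07, and without the one lacking Shld it was -0.35 with an adjusted p of 0.022. SERBP1, an mRNA and ribosome binding protein, was at 98.4 and 104.9 in the knockout line, against 99.7 and 88.2 in parental cells (0.11 ± 0.09, adjusted p = 0.32). A p above the threshold does not show that these 3 genes were unchanged.

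**Figure D2:**
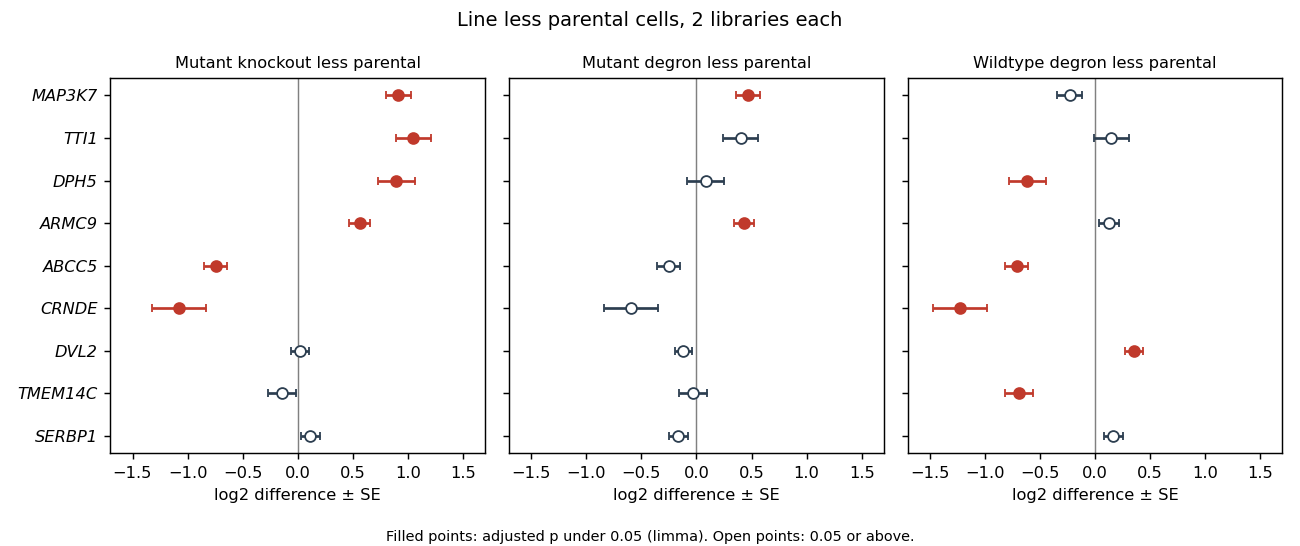
Log2 differences (± SE of the model) of the 9 genes in the 3 edited lines less parental cells, 2 libraries each, with filled points where the adjusted p was under 0.05. MAP3K7, TTI1, DPH5 and ARMC9 lie between 0.56 and 1.05 in the knockout line, while ABCC5 and CRNDE lie below 0 in all 3 lines.

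The wildtype degron line keeps mutant SF3B1 by its labels, and is set here against the same 2 parental libraries. Of the 9 genes 5 passed, 1 higher and 4 lower, beside 41.4% of all loci (20.5% higher and 20.9% lower). None of the genes that were higher in the knockout line was called higher here. MAP3K7 stood at 6.24 and 6.63 in the wildtype degron line without and with Shld, against 7.49 and 7.96 in parental cells (-0.23 ± 0.11, limma, adjusted p = 0.13). TTI1 stood at 8.46 and 11.8, against 9.37 and 8.48 in parental cells (0.15 ± 0.16, adjusted p = 0.48), and ARMC9 at 58.4 and 60.6, against 55.8 and 53.2 (0.12 ± 0.09, adjusted p = 0.31). DPH5 fell to 10.7 and 11.5, against 15.8 and 19.4 in parental cells (-0.61 ± 0.17, adjusted p = 0.019).

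ABCC5 and CRNDE were low in the wildtype degron line too. ABCC5 was at 54.6 and 56.7 and fell by 0.71 ± 0.10 against parental cells (limma, adjusted p = 0.0021). CRNDE was at 20.3 and 20.8 and fell by 1.23 ± 0.24 (adjusted p = 0.0054). TMEM14C also fell, to 192 and 188, against 266 and 355 in parental cells (-0.69 ± 0.13, adjusted p = 0.0042), and DVL2 rose to 64.6 and 64.7, against 51.6 and 49.3 (0.35 ± 0.08, adjusted p = 0.0090). SERBP1 did not pass, at 105.3 and 105.1 (0.16 ± 0.09, adjusted p = 0.16). The wildtype degron libraries also had the smallest sums of all values, 765737 and 762679, and the part of this in the TMEM14C level was not tested. Without the parental library with Shld, DPH5, CRNDE and DVL2 had adjusted p-values of 0.14, 0.054 and 0.055. Without the wildtype degron library with Shld DPH5 had 0.059, and without the one lacking Shld DPH5 had 0.094 and DVL2 0.051. Without a level filter DPH5, CRNDE and TMEM14C had 0.15, 0.086 and 0.056.

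Read from the column names, the knockout line and the wildtype degron line share the degron on wildtype SF3B1 and differ in the mutant allele, but they also differ in other ways. All 8 melanocyte markers were lower in the knockout line, with summed levels of 6442 and 7185, against 14207 and 15399 in the wildtype degron line (median log2 difference -1.24). LUM stood at 1.61 and 1.66, against 10.8 and 12.9 (limma, log2 difference -2.28, adjusted p = 2.9e-05), and SF3B1 RNA was lower by 0.39 (log2 difference -0.39, adjusted p = 0.0094). The part of these in the 9 genes was not tested. This comparison was added after the column names had been read. In the knockout line 5 of 9 genes were higher than in the wildtype degron line and 1 was lower, where 48.9% of all loci passed (23.8% higher and 25.1% lower). DPH5 rose by 1.51 ± 0.17 (limma, adjusted p = 0.00021), MAP3K7 by 1.14 ± 0.11 (adjusted p = 0.00010), TTI1 by 0.90 ± 0.16 (adjusted p = 0.0020) and ARMC9 by 0.43 ± 0.09 (adjusted p = 0.0054). DPH5 and MAP3K7 exceeded all but 1.33% and 2.43% of loci. TMEM14C was higher by 0.55 ± 0.13 (adjusted p = 0.0080) and DVL2 lower by 0.33 ± 0.08 (log2 difference -0.33, adjusted p = 0.0090). ABCC5 (-0.03 ± 0.10), CRNDE (0.15 ± 0.24) and SERBP1 (-0.05 ± 0.09) did not pass, with adjusted p-values of 0.80, 0.65 and 0.65. All 6 calls held with any 1 library left out, and that of TMEM14C was lost without a level filter (adjusted p = 0.074).

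The mutant degron line, with both Shld states together, lay between the knockout line and parental cells for several genes. MAP3K7 (0.47 ± 0.11, limma, adjusted p = 0.017) and ARMC9 (0.43 ± 0.09, adjusted p = 0.012) were higher than in parental cells, 2 of 9 beside 24.6% of all loci (10.9% higher and 13.7% lower). Summed melanocyte markers were 9138 and 7561 here, also under the parental sums, and their part was not tested. TTI1 (0.40 ± 0.16, adjusted p = 0.096), ABCC5 (-0.25 ± 0.10, adjusted p = 0.11) and CRNDE (-0.59 ± 0.24, adjusted p = 0.11) did not pass. With the Shld state as a block CRNDE did, at an adjusted p of 0.023, and without the library with Shld it stood at -0.96 with 0.039. With no other line in the fit, TTI1 passed at an adjusted p of 0.049. The remaining genes lay between -0.16 and 0.08. Both calls were lost without the mutant degron library lacking Shld (MAP3K7 0.34, adjusted p = 0.13, and ARMC9 0.34, adjusted p = 0.10) and without the parental library with Shld (adjusted p = 0.064 and 0.069). Without the parental library lacking Shld MAP3K7 had an adjusted p of 0.073, and without a level filter MAP3K7 and ARMC9 had 0.071 and 0.059.

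The second question was what removal of mutant SF3B1 protein did within a line. In the mutant degron line, no member passed after Shld withdrawal (0 of 9, limma, 2 of 9 at an unadjusted p under 0.05), where 0.0757% of all loci passed (0.042% higher and 0.0336% lower). Of all 11894 loci 247 had an unadjusted p under 0.05. The median of the 9 was 0.11, beside -0.0035 over all loci, and 6 of 9 lay above 0, beside 48.8%. DPH5 stood at 22.5 rescaled FPKM without Shld and 15.4 with it, 46.3% more without. CRNDE stood at 24.9 without and 42.0 with Shld, a difference of -40.8%. MAP3K7 was at 12.2 without and 10.0 with Shld, TTI1 at 13.5 without and 10.9 with, and ARMC9 at 78.7 without and 69.2 with.

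On the log2 scale DPH5 differed by 0.52 ± 0.18 (unadjusted p = 0.023, adjusted p = 1 across all loci, limma), a value that 1% of loci exceeded. CRNDE differed by -0.73 ± 0.20 (unadjusted p = 0.0080, adjusted p = 1), and 99.7% of loci had a higher value. TTI1 and MAP3K7 differed by 0.28 ± 0.16 and 0.26 ± 0.16, exceeded by 5.38% and 6.39% of loci, and ARMC9 by 0.18 ± 0.16. ABCC5 was at 72.1 without and 82.2 with Shld (-0.19 ± 0.17) and DVL2 at 48.2 without and 44.6 with (0.11 ± 0.15). TMEM14C was nearly level at 300.2 without and 299.8 with Shld, as was SERBP1 at 83.3 without and 83.8 with, and the sign of SERBP1 turned with quantile normalization (0.0011). The SE assumes that each library varies like the parental pair. Estimated fragments per unit of value were 1.05 without and 1.47 with Shld relative to parental cells with Shld, and the part of that in these values was not tested.

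**Figure D3:**
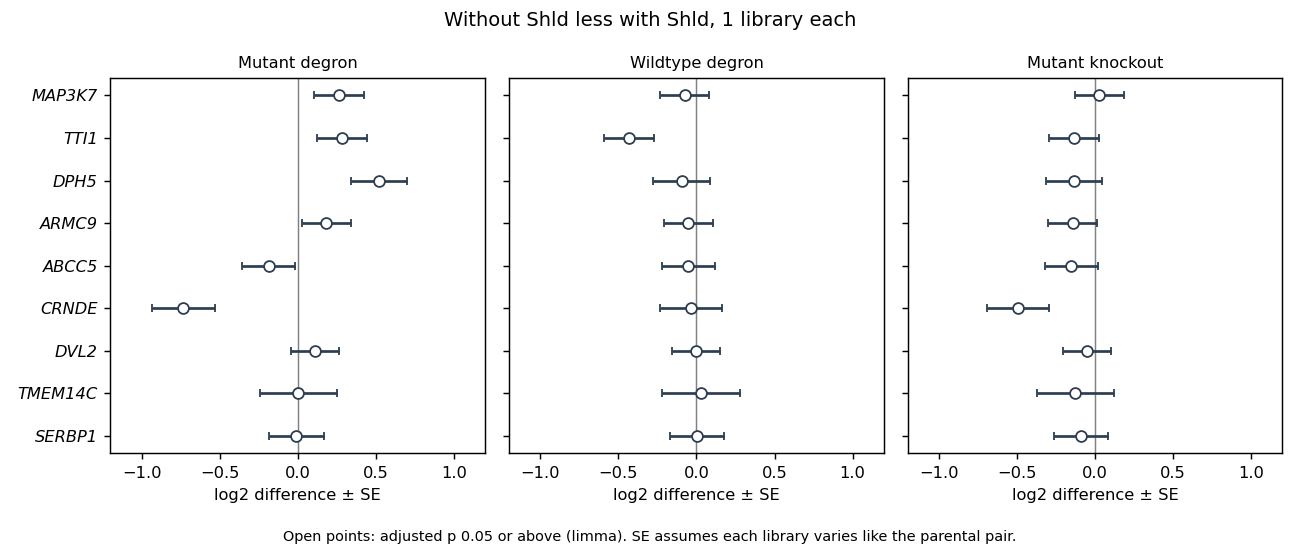
Log2 differences (± SE of the model) between the library without and the library with Shld in the 3 edited lines. No point passes an adjusted p of 0.05; DPH5 at 0.52 and CRNDE at -0.73 lie furthest from 0 in the mutant degron line, and TTI1 at -0.43 in the wildtype degron line.

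After withdrawal of wildtype SF3B1 the median of the 9 genes was -0.05, beside 0.01 over all loci. There 2 of 9 lay above 0, beside 52.5% of all loci. In the knockout line the median after Shld withdrawal was -0.14, beside 0.0012 over all loci, and 1 of 9 lay above 0, beside 50.2%. In the wildtype degron line 0 of 9 passed, with 1 at an unadjusted p under 0.05, beside 0.0673% of all loci, 0.0252% higher and 0.042% lower (limma). An unadjusted p under 0.05 was found at 477 of all 11894 loci. TTI1 stood at 8.46 without and 11.8 with Shld, a log2 difference of -0.43 ± 0.16 (unadjusted p = 0.030, adjusted p = 1) that 97.1% of loci exceeded. The other 8 genes lay between -0.09 and 0.03, and those above 0, TMEM14C at 0.03 and SERBP1 at 0.0031, were below 0 with quantile normalization. In the knockout line 0 of 9 passed as well, with 1 at an unadjusted p under 0.05, beside 0.0757% of all loci (0.0336% higher and 0.042% lower, limma). There 1361 of all 11894 loci had an unadjusted p under 0.05. CRNDE was at 19.1 without and 27.3 with Shld (-0.49 ± 0.20, unadjusted p = 0.043, adjusted p = 0.41), and the other 8 lay between -0.15 and 0.03.

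CRNDE was also lower in parental cells without Shld, 43.5 against 56.1 with it. So were TMEM14C, 266 against 355, DPH5, 15.8 against 19.4, and ABCC5, 86.1 against 97.8. Those cells have no degron by their labels, so the pair shows how far 2 libraries of 1 line can differ for these genes. Differences between the mutant and the wildtype degron withdrawals were tested directly. None of the 9 passed (limma, 3 of 9 at an unadjusted p under 0.05), beside 0.0336% of all loci (0.0168% in each direction). An unadjusted p under 0.05 was found at 497 of all 11894 loci. The change of TTI1 was 0.71 ± 0.23 larger with the mutant degron than with the wildtype degron (unadjusted p = 0.015), that of DPH5 0.62 ± 0.26 larger (unadjusted p = 0.047), and that of CRNDE differed by -0.70 ± 0.28 (unadjusted p = 0.043), each with an adjusted p of 1.

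The mutant degron withdrawal and the comparison of knockout line with parental cells share no library, so they can be read side by side. MAP3K7, TTI1, DPH5 and ARMC9 had a log2 difference above 0.1 in both, 4 of 9 genes, whereas 7.99% of all 11894 loci did. ABCC5 and CRNDE lay below -0.1 in both, 2 of 9 genes, beside 9.0% of all loci. These 2 genes were also lower without Shld in parental cells (log2 difference -0.18 and -0.36) and in the knockout line (-0.15 and -0.49). In the parental pair MAP3K7, TTI1, DPH5 and ARMC9 lay between -0.28 and 0.13. The limit of 0.1 was chosen after the values had been seen, and is smaller than the SE of each of these withdrawal differences.

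**Figure D4:**
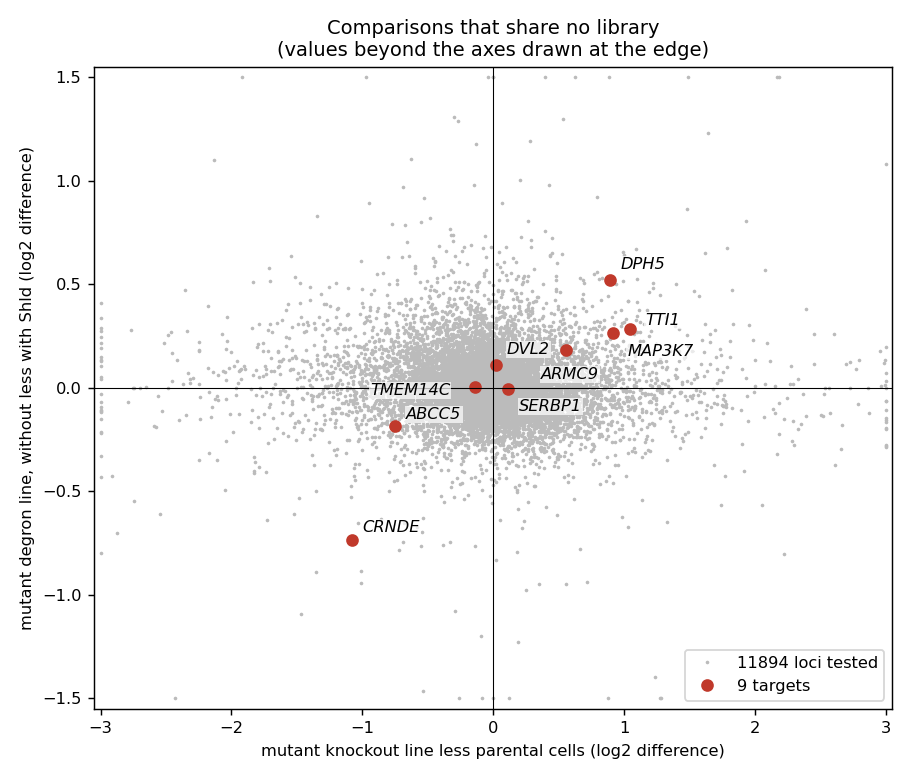
Log2 difference between the knockout line and parental cells (horizontal) against that between the mutant degron libraries without and with Shld (vertical), for 11894 loci in grey and the 9 genes in red. MAP3K7, TTI1, DPH5 and ARMC9 lie in the upper right, CRNDE and ABCC5 in the lower left, and DVL2, TMEM14C and SERBP1 near the origin.

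Set across all libraries by the labelled state of mutant SF3B1, the same 4 genes were higher in each of the 3 libraries without it than in any of the 5 with it. Over all loci 5.1% were separated in this way and 5.27% in the opposite direction. Apart from the wildtype degron pair, these are the libraries of the comparisons just read side by side. The separation is therefore not independent of them. All 8 melanocyte markers lay below 0 in this comparison, with a median of -0.89 and none past the threshold. Their summed levels were 6442 to 9138 without the mutant, against 7561 to 15399 with it. LUM was at 1.61 to 7.98 without the mutant, against 6.36 to 29.6 with it (limma, log2 difference -1.94, adjusted p = 0.10), and the part of these in the 4 genes was not tested. MAP3K7 ran from 12.2 to 15.6 rescaled FPKM in the 3 libraries without mutant SF3B1, against 6.24 to 10.0, with a median of 7.49, in the 5 with it. TTI1 ran from 13.5 to 20.5 without the mutant, against 8.46 to 11.8 with it, DPH5 from 22.5 to 35.0, against 10.7 to 19.4, and ARMC9 from 76.9 to 84.9, against 53.2 to 69.2. Each had p = 0.036 in an exact two-sided permutation test over the 8 libraries, not adjusted, which is the smallest value that 3 against 5 libraries allow and restates the separation. That test takes the 8 libraries as exchangeable, although they are pairs from 4 lines and 2 of the 3 without the mutant are 1 line, so it is given as a description.

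In the model over all loci the mean log2 differences were 0.99 ± 0.21 for DPH5, 0.83 ± 0.16 for MAP3K7, 0.77 ± 0.16 for TTI1 and 0.43 ± 0.11 for ARMC9 (limma, adjusted p = 0.096, 0.096, 0.096 and 0.10). Of the 9 genes 0 passed and 4 had an unadjusted p under 0.05. Of all 11894 loci 0.00841% passed and 2540 had an unadjusted p under 0.05. Without the mutant degron library with Shld these 4 genes all passed, with adjusted p-values from 0.0039 to 0.021. In that fit 1878 loci passed, instead of 1. Without the mutant degron library lacking Shld MAP3K7, TTI1 and DPH5 passed, with 0.020 to 0.028. The knockout line is then the only source of libraries without the mutant, so line and mutant state cannot be told apart. The other 5 genes overlapped between the states. ABCC5 ran from 51.4 to 72.1 without the mutant, against 54.6 to 97.8 with it, and CRNDE from 19.1 to 27.3, against 20.3 to 56.1. The knockout line supplies 2 of the 3 libraries without the mutant, so line and mutant state are partly the same here. Without that line, an alternative added after the data were seen, the mutant degron library without Shld stands alone against 5. The 4 differences were then 0.62 for DPH5, 0.63 for MAP3K7, 0.43 for TTI1 and 0.40 for ARMC9. Each had an adjusted p of 0.96 in a fit whose spread comes from those 5 libraries alone, with the lone library assumed to vary like them.

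As a description over the 8 libraries, which share lines and Shld states, the 9 genes formed groups of like profile. Among MAP3K7, TTI1, DPH5 and ARMC9 Pearson's r of the log2 levels ran from 0.735 (ARMC9 and DPH5) to 0.937 (DPH5 and MAP3K7). ABCC5 and CRNDE had r = 0.948, and DVL2 and SERBP1 0.789, while TMEM14C had -0.899 with DVL2. Among 9538 named loci with a mean of at least 5, the 2 with the profile most like each gene were AUP1 and SATB1 for MAP3K7 (r = 0.989 and 0.988), LIG3 and RTF1 for TTI1 (0.993 and 0.992), and AASDH and uc003mie.3 for DPH5 (0.988 and 0.986). They were SOX13 and uc009xjd.1 for ARMC9 (0.981 and 0.980), MIER1 and NUDT2 for ABCC5 (0.995 and 0.986), LOC100505876 and NUDT5 for CRNDE (0.970 and 0.969), and uc021pfw.1 and NFIX for DVL2 (0.992 and 0.989). VDAC3 and RBX1 were most like TMEM14C (0.993 and 0.992) and CCNY and TOR3A most like SERBP1 (0.990 and 0.982). LIG3, which encodes a DNA ligase, stood at 15.6 without and 10.9 with Shld in the mutant degron line, at 21.6 and 23.8 in the knockout line, and at 9.38 and 8.98 in parental cells.

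Other genes known as targets of mutant SF3B1 were examined from a list of 22 symbols, of which 17 were tested. In the mutant degron line 0 of 17 passed after withdrawal, beside 0.0757% of all loci (limma). An unadjusted p under 0.05 was found for 2 of the 17 and for 247 of all 11894 loci. Of the 17, 9 lay above 0, with a median of 0.02, beside -0.0035 over all loci. In the knockout line against parental cells 2 rose and 2 fell, 4 of 17 beside 37.8% of all loci (17.3% higher and 20.5% lower), so no larger share than over all loci, and the median was -0.10, beside -0.03. PPP2R5A, a regulatory subunit of the phosphatase PP2A, stood at 66.7 without and 47.8 with Shld in the mutant degron line (0.47 ± 0.17, adjusted p = 1), but at 73.1 and 68.2 in the knockout line, against 59.2 and 68.6 in parental cells (0.15 ± 0.22, adjusted p = 0.63). In the wildtype degron line PPP2R5A stood at 53.8 without and 86.2 with Shld. ORAI2 rose slightly in the knockout line (0.27 ± 0.07, adjusted p = 0.022), and ADAM12 (-1.45 ± 0.13, adjusted p = 9.2e-05) and ENOSF1 (-0.44 ± 0.10, adjusted p = 0.011) fell there. In the mutant degron withdrawal these 3 lay between -0.05 and 0.02.

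The partners of the 9 genes were counted from lists in the same comparisons. Of the 84 genes tested 0 passed in the mutant degron withdrawal or across the mutant states (limma), beside 0.0757% and 0.00841% of all loci. At an unadjusted p under 0.05 there were 2 and 15 of the 84, beside 247 and 2540 of all 11894 loci. The counts that follow are for the knockout line against parental cells, where 37.8% of all loci passed. Of 9 tested partners of TAK1 and kinases below it, 1 rose, TRAF6, the ubiquitin ligase that activates TAK1 (0.40), and 3 fell, MAP2K6 (-0.66), TAB3, a TAK1 adaptor (-0.65), and MAP2K3 (-0.39). Of 6 tested NF-kappaB response genes 1 fell, NFKB2 (-0.47), and 0 rose. The TTT and R2TP list had 1 rise, TELO2, the partner of TTI1 (0.30), and 1 fall, PIH1D1 (-0.46), among 6, and 2 of 4 tested PI3K-like kinases rose, PRKDC (1.06) and ATR (0.51). PRKDC had -0.30 in the mutant degron withdrawal, the lowest of that list. The same 4 kinases gave 3 rises over parental cells in the wildtype degron line. The line with the degron on mutant SF3B1 gave 2. Between knockout and wildtype degron line PRKDC did not pass (0.045 ± 0.11, limma, adjusted p = 0.75). ATR was higher there (0.31, adjusted p = 0.038) and MTOR lower (-0.65, adjusted p = 0.0042).

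Of 5 tested diphthamide genes, DPH2, which acts in the first step, rose (0.34), and ATPBD4 (-0.58) and DPH3 (-0.46) fell. Among 12 tested Dishevelled and Wnt core genes 6 rose, led by the receptors FZD1 (1.13) and LRP6 (1.04), and 0 fell. Against parental cells 8 of the 12 rose in the wildtype degron line, and 6 rose and 2 fell in the mutant degron line. Between knockout and wildtype degron line 1 was higher and 8 were lower, where 48.9% of all loci passed. FZD1 (0.23) and LRP6 (0.27) did not pass there (limma, adjusted p = 0.45 and 0.12). Wnt target genes were split in the knockout line against parental cells, with LEF1 (0.92) and MYC (0.52) higher and NOTUM (-2.24), TCF7 (-1.24) and NKD2 (-0.87) lower, among 7 tested. Of 13 tested genes of heme synthesis and mitochondrial iron, 1 rose and 1 fell, TMEM14A, a paralog of TMEM14C (-0.86), while PPOX, a late enzyme of heme synthesis that the list of other targets also holds, had 0.38 ± 0.17 in the mutant degron withdrawal (adjusted p = 1). Of 4 tested relatives of ABCC5, ABCC1 (0.91) and ABCC4 (0.74) rose and ABCC2 fell (-0.50). Against parental cells 2 of the 4 rose in the mutant degron line and 2 in the wildtype degron line, where 10.9% and 20.5% of all loci were higher.

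All 3 IRX genes listed as neighbours of CRNDE rose in the knockout line, IRX5 (0.82), IRX6 (0.75) and IRX3 (0.60), whereas CRNDE itself fell. Between knockout and wildtype degron line only IRX5 passed (0.74, limma, adjusted p = 0.0027). IRX6 (0.54) and IRX3 (0.14) did not (adjusted p = 0.074 and 0.27). In the mutant degron line IRX6 stood at 5.48 without and 3.94 with Shld, and IRX3 at 6.81 and 6.09. IRX5 stood at 4.21 and 4.54 in the knockout line, against 1.81 and 2.28 in parental cells, and at 1.86 without and 2.05 with Shld in the mutant degron line. Among 5 cilium genes related to ARMC9, 1 rose, CSPP1 (0.54), and 1 fell. HABP4, the paralog of SERBP1, rose (0.85), 1 of 3 tested. Of 8 tested nonsense-mediated decay factors 4 rose and 0 fell. All 8 lay above 0, beside 46.4% of all loci, and their median was 0.32, beside -0.03. UPF3B (0.93), SMG8 (0.50) and UPF2 (0.47) were among those that rose. Against parental cells 3 of the 8 rose and 1 fell in the wildtype degron line, and 1 rose in the mutant degron line. UPF3B, which couples decay to the exon junction, stood at 10.6 and 12.8 in the knockout line, against 5.85 and 5.48 in parental cells, and at 9.84 without and 7.41 with Shld in the mutant degron line (0.37 ± 0.16, adjusted p = 1).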

How the data were processed

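A single table of 32087 loci in 8 libraries was deposited, and the authors' values are treated here as FPKM rescaled to a 75th percentile of 10. TopHat, Cufflinks and hg19 are named per the submitters' processing notes; the unit is inferred from Cufflinks and the values, and for versions, annotation and strand the answer is "not given in the sources used here". Per the labels' protocols, TruSeq libraries gave paired reads of 100 bases. Columns were matched to samples by name. Since the values are not counts, depth gives no interval.

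Log2(value + 1) of 11894 loci (named, 1 locus per symbol, no small RNAs, mean of at least 1) was tested with limma 3.58.1 in R 4.3.3, using empirical Bayes with a trend and Benjamini-Hochberg adjustment over all of them, at 0.05. Fold changes on this scale understate changes of low genes. The code was tested on simulated data. For withdrawals the spread came from the parental pair (1 residual degree of freedom), for lines from the Shld pairs of the 4 lines (4), and for mutant states from all 8 libraries (6). The 3 edited lines share the parental libraries as controls. Named are the 9 genes, up to 4 per list that passed, or the 2 with the largest difference, and the 2 loci most alike to each gene. Members and lists were chosen with earlier results of these data known. Alternatives were another pseudocount, level filter, scaling, locus set or spread, a Shld block and leaving out each library. Exact tests used scipy 1.17.1 and figures matplotlib 3.10.9. Some values of single genes and 1 sequence are not reported here.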

Additional observations from a re-analysis of the deposited data

How the results depend on the processing

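Of 999 recomputed differences of the 9 genes over 9 comparisons, 945 kept their direction and their side of the threshold, 20 lost and 11 gained a call, and 23 changed sign; none of the last had passed. Each group had 1 library, so its replicate number pairs nothing, but lines could be paired by Shld state. With that state as a block (the replicate block), 6, 3 and 5 of the 9 genes passed in the knockout, mutant degron and wildtype degron lines against parental cells, instead of 6, 2 and 5. The added call was CRNDE in the mutant degron line (-0.59, adjusted p = 0.023). Without a level filter 0 instead of 2 genes passed in the mutant degron line against parental cells and 2 instead of 5 in the wildtype degron line. With 1 library left out, those counts ran from 0 to 3 and from 2 to 5, that of the knockout line from 5 to 7, and that of the mutant states from 0 to 4, instead of 0. Sign changes with quantile normalization were SERBP1 in the mutant degron withdrawal (0.0011), TMEM14C and SERBP1 in the wildtype degron withdrawal (-0.0075 and -0.019) and in the difference of both (0.034 and 0.020), TMEM14C in the mutant degron line (0.041) and SERBP1 across mutant states (0.033). Median scaling turned DVL2 in the knockout line (-0.0047). Without the wildtype degron line DVL2, TMEM14C and SERBP1 turned across mutant states (0.050, -0.093 and 0.074). The cause was not tested. With 1 library left out, differences changed sign within these ranges: against parental cells DVL2 (-0.010 to 0.052) and TMEM14C (-0.35 to 0.067) in the knockout line, DPH5 (-0.18 to 0.34) and TMEM14C (-0.24 to 0.18) in the mutant degron line, and TTI1 (-0.067 to 0.36) in the wildtype degron line; between knockout and wildtype degron line CRNDE (-0.10 to 0.39) and ABCC5 (-0.11 to 0.04); and across mutant states SERBP1 (-0.084 to 0.081). Counts of passing loci moved more than the members' calls: 9 in the mutant degron withdrawal became 0 with quantile normalization or median scaling and 940 without a level filter, 8 in the wildtype degron withdrawal became 2 to 689, 9 in the knockout withdrawal 5 to 1058, and 4 in the difference of withdrawals 0 to 1282. Across mutant states 1 became 0 to 1878, the highest without the mutant degron library with Shld. With quantile normalization the split of higher and lower loci was 1 and 4 in the knockout withdrawal, instead of 4 and 5, and 3 and 2 in the wildtype degron withdrawal, instead of 3 and 5. For lines against parental cells the counts ran from 2738 to 4541 (4500 as reported) for the knockout, 1025 to 3599 (2927) for the mutant degron and 2326 to 5574 (4922) for the wildtype degron. Both planned choices of another spread for the difference of withdrawals were the same fit and were run once.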
